A study of Bos taurus with 9 samples.

Results

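The genes described here are the subunits of the hypoxia-inducible factors (HIF1A, EPAS1 and ARNT), the enzymes and the adaptor that sense oxygen and remove HIF (EGLN1, EGLN2, EGLN3, VHL and HIF1AN), and a pair of widely used HIF target genes, VEGFA and BNIP3. They were chosen by symbol, and all 10 were found among the 22127 genes of the deposited table, each on 1 row. All 10 were abundant enough to be tested, among 16469 genes tested in all. The samples were 9 RNA sequencing libraries of bovine blastocysts collected at day 8, each made from a pool of 9 to 11 embryos. Only the medium in which the cumulus-oocyte complexes had matured for 24 hours differed: 5.5 mM glucose (control, 3 libraries), 2.75 mM glucose (low glucose, 3 libraries), or 2.75 mM glucose with 1.8 mM BHB (low glucose with BHB, 3 libraries). The labels do not write BHB out; it is read here as beta-hydroxybutyrate, a ketone body. All groups shared the maturation medium otherwise (serum, FSH and estradiol included), fertilisation and embryo culture, and the labels give 20% O2 and 5% CO2 for the maturation incubator and for culture from day 4 onwards. The labels name no breed, age or number of donor cows. They also do not tie the replicate pools to separate culture runs. The p-values therefore weigh group differences only against the spread between these pools, which may be technical.

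HIF is a pair of proteins: an oxygen-labile alpha subunit, encoded by HIF1A or EPAS1, and the stable partner ARNT. Where oxygen is plentiful, the EGLN prolyl hydroxylases mark the alpha subunit, VHL recognises the mark and recruits a ubiquitin ligase, and the protein is destroyed, while HIF1AN hydroxylates an asparagine, which blocks binding of coactivators. When oxygen falls, these enzymes slow down, the alpha subunit builds up and genes of glycolysis, vessel growth and mitophagy are switched on, EGLN3 among them as a feedback. Much of this control acts on proteins, which were not measured here. In early embryos the pathway is known chiefly from work on the oxygen tension of culture and on glucose use by the blastocyst.

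Total estimated counts ran from 55611205 to 75178898 per library, and none of the 10 genes had fewer than 159 counts in any library. Levels are CPM, that is counts per library size, adjusted by TMM factors, which correct for composition between libraries. They are not per transcript length, so they are compared between libraries and not between genes. Blastocyst identity markers were present in every library: the summed CPM of 10 trophectoderm markers lay between 13371 and 21166, and that of 6 epiblast markers, POU5F1 among them, between 1096 and 1334. Every replicate pair differed by more than sampling noise (chi-square per degree of freedom of at least 39.9).

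HIF1A fell in blastocysts from both low glucose media, and it was the 1 gene of the 10 to pass the test. HIF1A (ENSBTAG00000020935) encodes the alpha subunit that answers acute loss of oxygen. It stood at 78.0, 107 and 94.1 CPM in control replicates 1 to 3, at 46.1, 42.7 and 36.9 CPM in low glucose, and at 34.6, 55.2 and 50.7 CPM in low glucose with BHB. All 6 libraries of the low glucose media lay below all 3 control libraries, and the low glucose libraries fell within the range of those with BHB. The counts behind these values ran from 2108 to 7668, so counting error is small beside the spread between pools. The fall in low glucose was 2.22-fold, with a 95% interval of 1.69- to 2.91-fold (log2 fold change -1.15, SE 0.180, edgeR quasi-likelihood adjusted p = 0.00505). With BHB it was 1.99-fold, with an interval of 1.51- to 2.60-fold (log2 fold change -0.99, SE 0.180, edgeR adjusted p = 0.0180). The call with BHB was lost without control replicate 2 (edgeR adjusted p = 0.0750), control replicate 3 (0.0819) or BHB replicate 3 (0.0586), while that in low glucose held without any single library (0.0308 or lower). Between the low glucose media HIF1A differed by 0.16 on the log2 scale, with an interval from -0.23 to 0.55 (edgeR adjusted p = 1.00).

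Some marker genes of cumulus and granulosa cells, the maternal cells around the oocyte, were, like HIF1A, lower in both low glucose media than in control. Of 23 markers of these cells, 7 were lower in low glucose, 8 with BHB and 9 in both together, with 0 higher. Among all tested genes 2.02%, 1.38% and 2.87% were lower in the same order, and 0.00607% were higher in each. The medians of the marker list were -1.34, -1.29 and -1.31. Summed CPM of the 23 markers lay at 1325 to 1777 in control, 842 to 1515 in low glucose and 900.5 to 1375 with BHB. The sums overlapped. PTGS2, a prostaglandin synthase gene named after its values were seen, made up much of these sums, with 355 to 544 CPM in control, 414 to 1011 CPM in low glucose and 464 to 928 CPM with BHB. Geometric means of the 23, which weigh each marker alike, separated control from the rest. They lay at 13.46 to 16.62 CPM in control, 4.873 to 8.157 CPM in low glucose and 4.945 to 6.412 CPM with BHB. Within control, replicate 1 had the highest geometric mean but the lowest HIF1A. In low glucose replicate 1, and with BHB replicate 2, were highest in both. In both media together 21 of the 23 log2 differences were negative, and the 2 positive ones were PTGS2 at 0.59 (SE 0.269, edgeR adjusted p = 0.564) and HSD3B1, also named after it was seen, at 0.39 (SE 0.311). In both media together LUM, a matrix proteoglycan gene, stood at -3.39 (SE 0.343), CD44 at -2.30 (SE 0.261), VIM at -1.71 (SE 0.196), DCN at -2.35 (SE 0.289), VCAN at -2.92 (SE 0.370), NR5A2 at -1.54 (SE 0.200) and GJA1 at -2.21 (SE 0.293), with COL3A1 at -2.05 (SE 0.364) and COL1A2 at -1.31 (SE 0.256). COL3A1 and COL1A2 lost that call without control replicate 1 (-1.81 and -0.93). In the single media, VCAN lost its call in low glucose without low glucose replicate 3 (-2.27). With BHB, GJA1 lost its call without control replicate 3 (-1.98) or BHB replicate 3 (-2.11), NR5A2 without control replicate 1 (-1.25) or 3 (-1.42) or BHB replicate 1 (-1.25) or 3 (-1.27), and COL3A1 without any 1 control library or BHB replicate 1 or 3 (-2.39 to -1.96). INHA, a defining granulosa gene, had no counts in control replicate 2 and in all 3 low glucose libraries. It was detected in every BHB library, at a mean of 0.241 CPM, next to a control mean of 0.573 CPM. CYP19A1 and FSHR, the aromatase and the FSH receptor genes, overlapped between groups, from 17.1 to 28.6 CPM and from 3.32 to 5.67 CPM across all libraries. VIM and the collagen genes are also expressed by many other cells. Whether RNA of the other markers came from maternal cells or from the embryo itself was not tested. In pooled embryos, fewer cells of a type and less RNA per cell cannot be told apart. The part of these markers in the fall of HIF1A, or of any gene named below, was not tested.

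Control libraries are shared by these comparisons, so the falls are not independent of each other. Taking both low glucose media together against control in the same fit, the fall of HIF1A was 2.10-fold, with an interval of 1.67- to 2.63-fold (edgeR adjusted p = 0.00134). In low glucose 2.03% of all tested genes were called in either direction and 2.02% lower, with BHB 1.38% lower and in both media together 2.87% lower. In each of the 3, genes called higher made up 0.00607%. HIF1A alone of the 10 genes was called lower in each and 0 were called higher, counts too small to set against these shares. Libraries of low glucose lay wholly below control in 8.85% of genes and wholly above it in 4.31%, with BHB in 8.56% and 4.77%, while 2 of the 10 genes, HIF1A and EGLN3, lay below and 0 above in both. For the 10 genes the median log2 difference was -0.02 in low glucose, -0.05 with BHB and -0.03 in both together, next to 0.02, 0.01 and 0.02 over all genes tested.

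**Figure D1:**
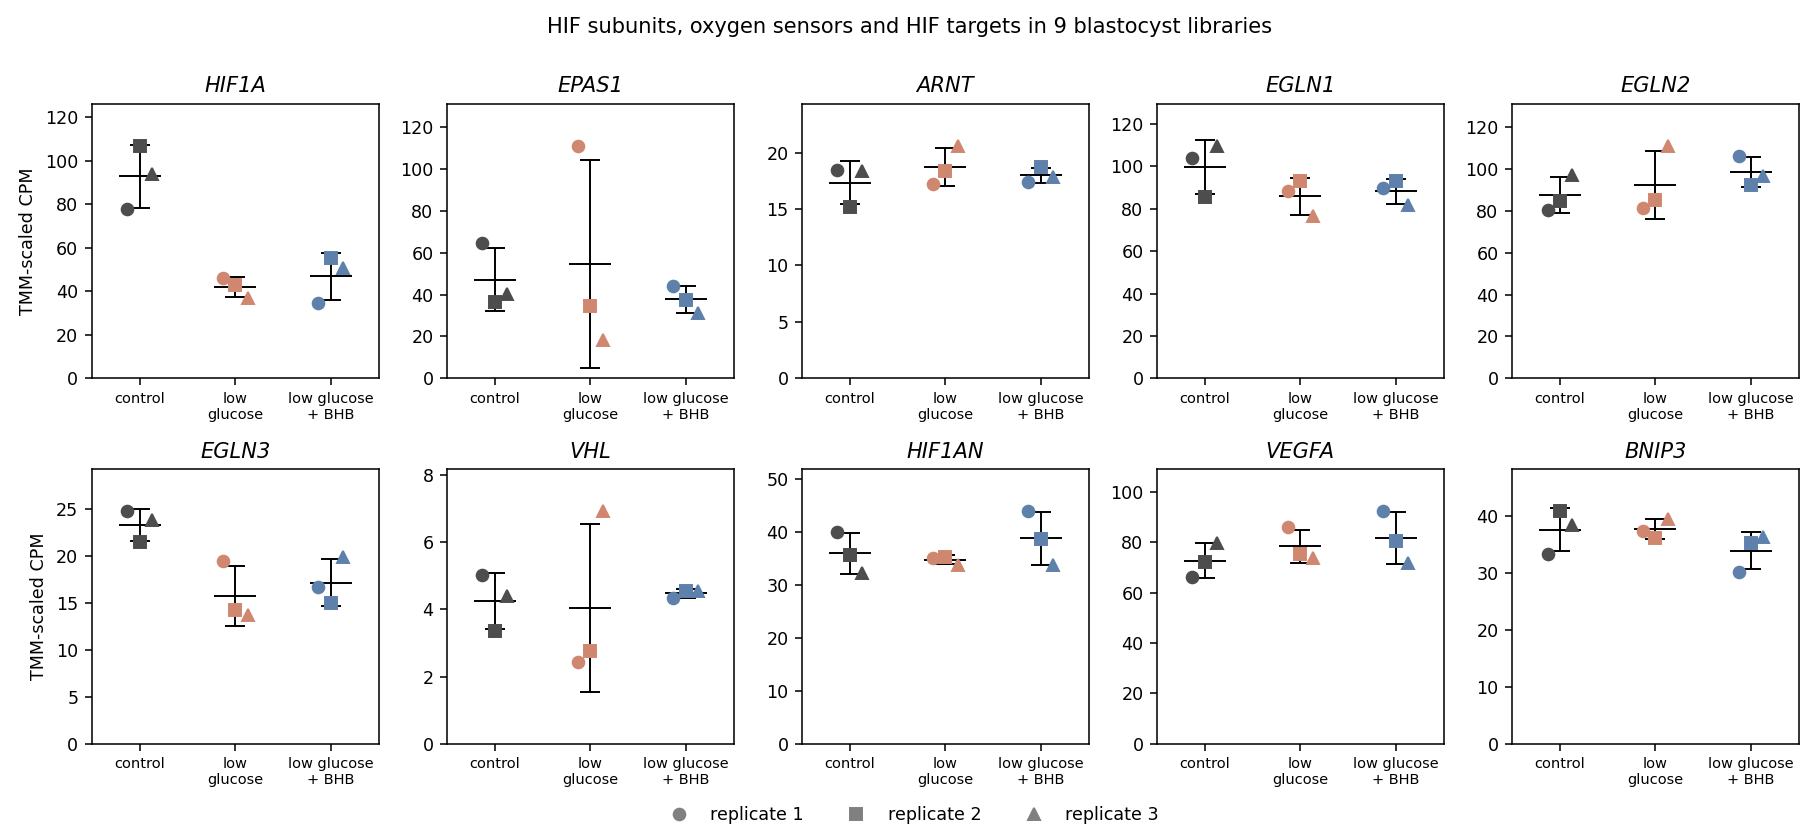
TMM-scaled CPM (vertical axes, each starting at 0) of the 10 genes in control, low glucose and low glucose with BHB libraries. Each symbol is 1 library, shaped by replicate number, and the bars are the mean and SD of 3 libraries. HIF1A and EGLN3 are the genes whose 3 control libraries all lie above the other 6.

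EPAS1 (ENSBTAG00000003711) encodes the other main alpha subunit, HIF-2 alpha, best known from endothelium and from chronic hypoxia. It varied most of the 10 genes between pools. Control libraries held 64.5, 36.5 and 40.3 CPM, low glucose libraries 111, 34.5 and 18.4 CPM, and libraries with BHB 44.3, 37.6 and 31.2 CPM. The highest and the lowest library both belonged to low glucose, 6.05-fold apart, so the groups overlapped widely. Its biological coefficient of variation in the fit was 0.406, higher than or equal to that of 72.5% of genes tested, against 0.164 for HIF1A. No comparison passed: the log2 difference was 0.22 in low glucose (interval -0.83 to 1.26, edgeR adjusted p = 0.997) and -0.32 with BHB (interval -1.37 to 0.73). The value in low glucose turned to -0.81 without low glucose replicate 1 (edgeR adjusted p = 0.419), and that between the low glucose media from -0.54 to 0.50. With BHB the interval of EPAS1 includes a fall of the size seen in HIF1A, while in low glucose it ends at -0.83.

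ARNT (ENSBTAG00000021037), the partner of both alpha subunits, was the steadiest subunit. Its libraries ran from 15.2 to 18.5 CPM in control, from 17.2 to 20.6 CPM in low glucose and from 17.4 to 18.7 CPM with BHB. Low glucose differed from control by 0.11 on the log2 scale (interval -0.21 to 0.43) and BHB by 0.05 (interval -0.27 to 0.37). Set against ARNT in the same library, HIF1A lay at 0.328 to 0.540 of the control mean ratio in the 6 low glucose and BHB libraries and at 0.772 to 1.29 in control. These ratios to ARNT did not overlap between control and the other libraries. Ratios of HIF1A to EPAS1 did, at 0.560 to 1.36 in control and 0.192 to 0.932 in the other 6. So did those to VHL, at 0.677 to 1.39 and 0.233 to 0.828.

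Among the oxygen sensors, EGLN3 followed the direction of HIF1A without passing the test. EGLN3 (ENSBTAG00000008172) is a prolyl hydroxylase whose gene is itself a HIF target in many cells. Control libraries held 24.7, 21.4 and 23.8 CPM, low glucose libraries 19.4, 14.2 and 13.7 CPM, and libraries with BHB 16.6, 14.9 and 19.9 CPM. All 3 control libraries lay above the other 6. In low glucose the log2 difference was -0.56 (interval -0.95 to -0.18), with an unadjusted p of 0.00759 and an edgeR adjusted p of 0.208. With BHB the difference was -0.44 (interval -0.83 to -0.06, edgeR adjusted p = 0.532), and over both media together it was -0.50 (interval -0.83 to -0.18, edgeR adjusted p = 0.140). The log2 value in both media stayed between -0.58 and -0.46 under all 16 alternatives run, with adjusted p from 0.0553 to 0.520. Among all genes, 5.56% had every library of both low glucose media below every control library and 1.03% had every one above, against 2 and 0 of these 10.

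EGLN1 and EGLN2 showed no such separation. EGLN1 (ENSBTAG00000053296), the hydroxylase that sets HIF levels in most normally oxygenated cells, ran from 85.4 to 110 CPM in control, from 76.4 to 93.1 CPM in low glucose and from 81.8 to 93.3 CPM with BHB. Its log2 difference was -0.22 in low glucose (interval -0.49 to 0.06) and -0.18 with BHB (interval -0.45 to 0.10). EGLN2 (ENSBTAG00000017996), a hydroxylase of the same family, ran from 80.7 to 97.1, from 81.3 to 111 and from 92.6 to 106 CPM in the same order. Its differences were 0.08 (interval -0.22 to 0.38) and 0.17 (interval -0.13 to 0.47). Relative to EGLN2 in the same library, EGLN3 lay at 0.914 to 1.14 of the control mean ratio in control libraries, at 0.458 to 0.891 in low glucose and at 0.583 to 0.768 with BHB. Relative to EGLN1 the groups overlapped, with 0.922 to 1.07 in control, 0.649 to 0.937 in low glucose and 0.681 to 1.03 with BHB.

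VHL and HIF1AN, which act on the alpha subunits after or beside the EGLN enzymes, did not pass in any comparison. VHL (ENSBTAG00000016101), the recognition subunit of the ubiquitin ligase, had the lowest counts of the 10 genes, from 159 (exact 95% counting interval 135.2 to 185.7) to 408. Control libraries held 5.02, 3.36 and 4.38 CPM, and libraries with BHB 4.33, 4.56 and 4.55 CPM. Low glucose split into 2.43 and 2.77 CPM in replicates 1 and 2 and 6.92 CPM in replicate 3, the highest of all libraries. The log2 difference was -0.08 in low glucose (interval -0.88 to 0.72) and 0.07 with BHB (interval -0.73 to 0.87), and without low glucose replicate 3 the former was -0.71. HIF1AN (ENSBTAG00000000092), the asparagine hydroxylase, ran from 32.3 to 39.9 CPM in control, from 33.7 to 35.3 CPM in low glucose and from 33.8 to 43.9 CPM with BHB. Its differences were -0.05 (interval -0.34 to 0.25) and 0.11 (interval -0.18 to 0.41).

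The pair of HIF targets did not pass the test in any comparison. VEGFA (ENSBTAG00000005339), the growth factor of endothelial cells and a standard readout of HIF, ran from 66.1 to 79.8 CPM in control, from 73.9 to 86.0 CPM in low glucose and from 71.7 to 92.4 CPM with BHB. Its log2 difference from control was 0.11 in low glucose (interval -0.17 to 0.39, edgeR adjusted p = 0.997) and 0.17 with BHB (interval -0.11 to 0.45, edgeR adjusted p = 0.918). BNIP3 (ENSBTAG00000017804), a mitochondrial outer membrane protein that recruits the autophagy machinery, ran from 33.4 to 40.8, from 36.1 to 39.5 and from 30.2 to 36.4 CPM in the same order. Its difference was 0.003 in low glucose (interval -0.28 to 0.29) and -0.15 with BHB (interval -0.43 to 0.14). Both genes were tightly measured, with biological coefficients of variation of 0.127 and 0.131, lower than in most genes tested. The low ends of their intervals in low glucose, -0.17 and -0.28, lay above the interval of HIF1A, which ended at -0.76, although the difference between genes was not itself tested.

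Between the low glucose media none of the 10 genes passed, nor did any of the 16469 genes in edgeR (0% called, with 270 genes at an unadjusted p under 0.05), while DESeq2 called 2. The 10 log2 differences ran from -0.54 for EPAS1 to 0.16 for HIF1AN and HIF1A. Intervals were within 0.55 of 0 for all but EPAS1 and VHL. BHB libraries lay wholly below those of low glucose in 2.54% of genes and wholly above in 2.96%, and in 0 of the 10. Between libraries of the same number, BNIP3 was lower with BHB in 3 of 3 pairs, and HIF1AN and EGLN1 were higher in 3 of 3. Some of these gaps were minute: 93.1 against 93.3 CPM for EGLN1 in replicate 2, and 33.7 against 33.8 CPM for HIF1AN in replicate 3. The share of all genes with 3 of 3 in one direction was not computed, so these counts carry little weight. With the replicate block the log2 difference of BNIP3 was -0.15 (SE 0.121), that of HIF1AN 0.15 (SE 0.120), that of EGLN1 0.04 (SE 0.130) and that of EPAS1 -0.21 (SE 0.320), all with an edgeR adjusted p of 1.00.

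**Figure D2:**
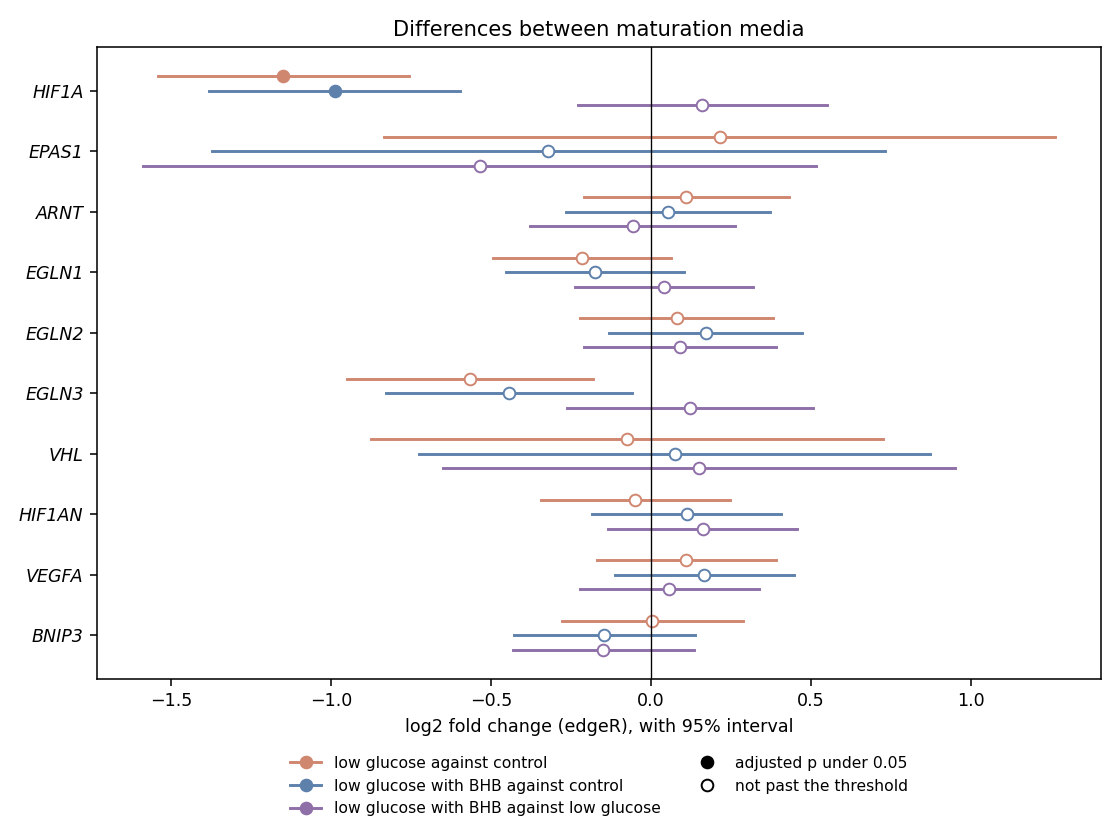
Log2 fold changes from the edgeR fit (horizontal axis) with 95% intervals, for low glucose against control, low glucose with BHB against control, and low glucose with BHB against low glucose. Filled symbols have an adjusted p under 0.05. HIF1A is filled against control at -1.15 and -0.99, and the widest intervals belong to EPAS1 and VHL.

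Further genes of the pathway were taken from fixed lists. None of the genes on these pathway lists passed in low glucose or with BHB taken singly, and a few passed when both media were set against control together. In that joint comparison 2.87% of all tested genes were lower and 0.00607% higher, the shares to set beside the counts below. Among 7 other HIF subunits and coactivators, 1 was lower and 0 higher, at a median of 0.02, next to 0.02 over all genes. The gene that fell was ARNT2, a close relative of ARNT that can also pair with alpha subunits. It held 2.37, 2.80 and 3.57 CPM in control, then 1.22, 1.07 and 1.22 CPM in low glucose and 1.17, 0.837 and 1.60 CPM with BHB, a log2 difference of -1.30 (SE 0.299, edgeR adjusted p = 0.0363). Every control library was higher than the other 6, but the call was lost in 8 of 9 fits that each left out a library, with values from -1.43 to -1.11, and held only without BHB replicate 3. HIF3A, named after its value was seen, stood at 0.11 (SE 0.320), and the coactivator NCOA2, the leading gene of the list after ARNT2, at 0.10 (SE 0.121).

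Genes of the VHL ubiquitin ligase and of HIF turnover had 0 of 12 past the threshold, with a median of 0.01 in both media together. The ubiquitin-conjugating enzyme gene UBE2D1 stood at -0.24 (SE 0.162) and SIAH2, a ligase gene that acts on EGLN enzymes, at 0.29 (SE 0.212), or 0.11 without control replicate 1 and 0.49 without control replicate 3. Known regulators of HIF1A transcription and translation also had 0 of 10 past the threshold and a median of 0.08. RPTOR, a subunit of the mTOR complex, stood at 0.19 (SE 0.111), and EIF4E, the cap-binding translation factor gene, at -0.27 (SE 0.125, edgeR adjusted p = 0.577).

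Of 18 glycolytic HIF targets, 2 were lower and 0 higher in both media together, with a median of -0.01. PFKP, a phosphofructokinase gene, held 17.5, 18.7 and 15.9 CPM in control, then 8.55, 7.19 and 12.0 CPM in low glucose and 10.8, 8.03 and 7.75 CPM with BHB. Its log2 difference was -0.94 (SE 0.182, edgeR adjusted p = 0.0126). SLC16A3, the gene of a lactate exporter, held 5.41, 9.02 and 8.19 CPM in control and from 2.83 to 4.52 CPM in the other 6 libraries, a difference of -1.09 (SE 0.225, edgeR adjusted p = 0.0180). The PFKP call was lost without control replicate 1 (-0.93) or 2 (-0.88), and that of SLC16A3 without control replicate 2 (-0.94) or 3 (-1.01), low glucose replicate 2 (-1.01) or BHB replicate 3 (-1.06). The list held 9 negative and 9 positive differences.

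Among 29 other hypoxia-induced genes, 0 were higher, the median was -0.06, and 19 differences were negative and 10 positive. NT5E, the gene of the ecto-enzyme that makes adenosine, stood at -2.24 (SE 0.558, edgeR adjusted p = 0.0567) and passed under 5 of the 16 alternatives. In NT5E, BNIP3L, P4HA1 and ANGPTL4 all control libraries exceeded the other 6, as they did in 5.56% of all tested genes. P4HA1 stood at -0.47 (SE 0.137, edgeR adjusted p = 0.126) and ANGPTL4 at -3.03 (SE 0.838, edgeR adjusted p = 0.0967), both named after their values were seen. ANGPTL4 was barely detected, with mean levels of 0.689 CPM in control, 0.157 CPM in low glucose and 0.0438 CPM with BHB.

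VEGF ligands and receptors other than VEGFA had 1 lower and 0 higher among 8, with a median of 0.04. VEGFC, a growth factor of lymphatic vessels, held 3.01, 1.62 and 2.93 CPM in control and from 0.305 to 0.947 CPM in the other 6 libraries, a log2 difference of -2.02 (SE 0.440, edgeR adjusted p = 0.0262). That call was lost without control replicate 1 (-1.87) or 3 (-1.88), low glucose replicate 2 (-1.97) or BHB replicate 3 (-2.06). NRP1, a coreceptor gene for VEGF, stood at -1.14 (SE 0.290, edgeR adjusted p = 0.0640). It passed under 2 of the 16 alternatives, DESeq2 among them (adjusted p = 0.0157). Mitophagy receptors and partners had 0 of 12 past the threshold and a median of -0.10. BNIP3L, the closest relative of BNIP3, stood at -0.27 (SE 0.103, edgeR adjusted p = 0.369) with 62.8 to 71.6 CPM in control and 48.6 to 60.2 CPM in the other 6 libraries. GABARAPL1, an autophagosome protein gene, stood at -0.38 (SE 0.121, edgeR adjusted p = 0.197) and passed under 1 of the 16 alternatives.

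**Figure D3:**
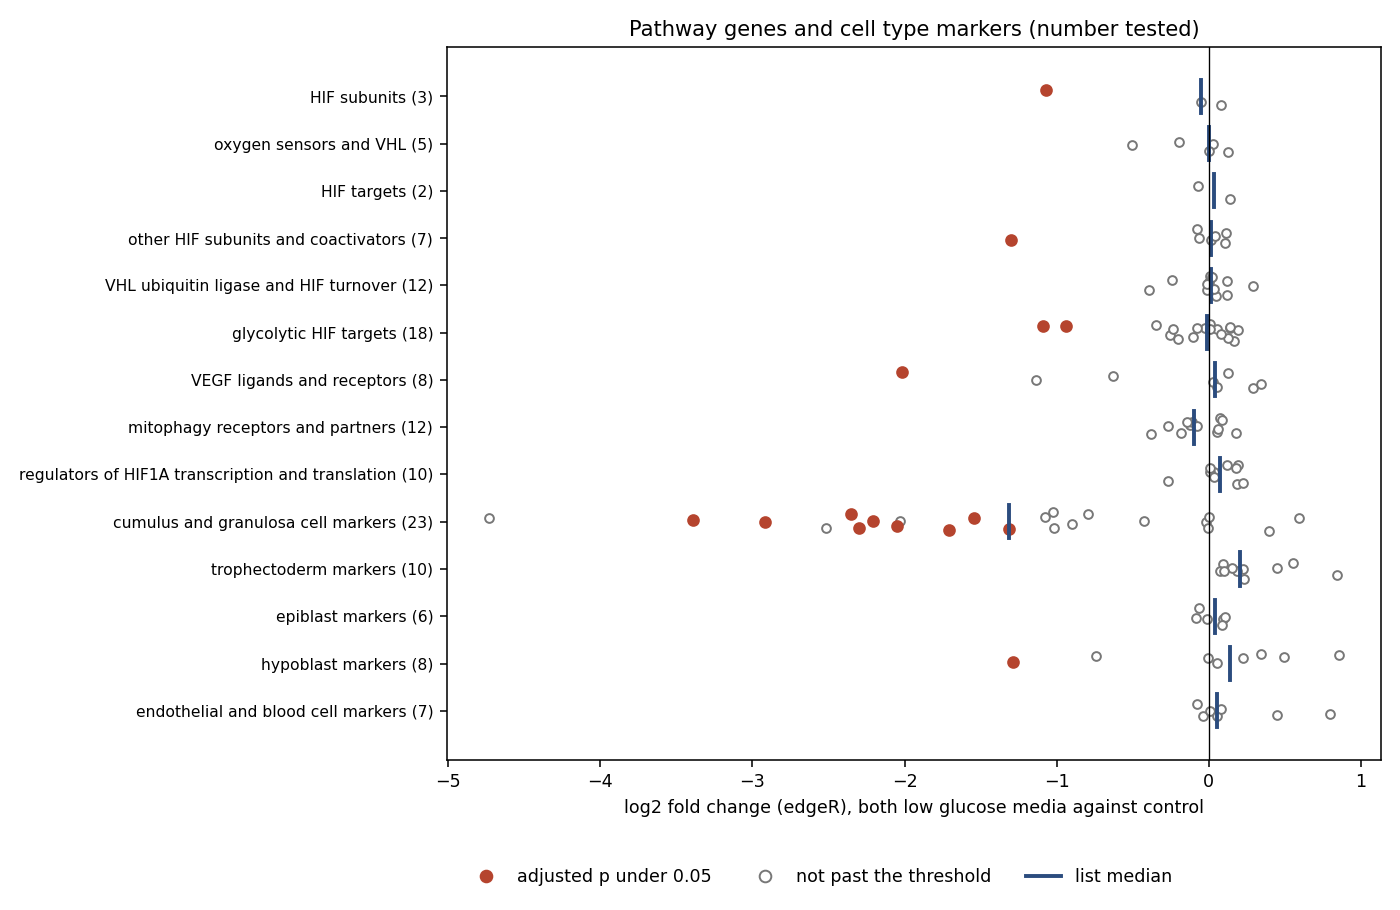
Log2 fold change, pooling both low glucose media against the control medium (horizontal axis), for every tested gene of each list shown, with 1 symbol per gene, red where the adjusted p is under 0.05, and a blue bar at the list median. The list of other hypoxia-induced genes is not drawn. The medians of the pathway lists lie between -0.10 and 0.08, while that of cumulus and granulosa markers lies at -1.31.

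Among markers of the embryo's own lineages, those of trophectoderm had 0 of 10 past the threshold and a median of 0.20 in both media together, with 10 positive and 0 negative differences. CLDN7 stood at 0.45 (SE 0.144) and KRT19 at 0.84 (SE 0.345), the latter at 0.44 without BHB replicate 2. Epiblast markers had 0 of 6 past it and a median of 0.04, with POU5F1 at 0.11 (SE 0.092) and PRDM14 at 0.09 (SE 0.133). Hypoblast markers had 1 of 8 lower, the transcription factor gene GATA4 at -1.29 (SE 0.202, edgeR adjusted p = 0.00310), and a median of 0.14, with LAMA1 at -0.74 (SE 0.274), or -0.49 without control replicate 1. LAMA1 passed under 1 of the 16 alternatives. Endothelial and blood cell markers had 0 of 7 past it and a median of 0.05, with TIE1 at 0.45 (SE 0.322), or 0.22 without BHB replicate 2, and LYZ at 0.80 (SE 0.439), and CDH5 had no counts in any library.

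The genes whose levels ran most like those of HIF1A over the 9 libraries were sought among 9689 genes with a symbol and a mean of at least 5 CPM. The 5 nearest by Pearson correlation of log2 CPM were PRKAR2B (0.982), BMP2 (0.975), CDH2 (0.973), PLOD2 (0.971) and IFI27 (0.971), given as a description with no test. They encode a regulatory subunit of protein kinase A, a bone morphogenetic protein, N-cadherin, a collagen lysyl hydroxylase and an interferon-induced protein. Much of this likeness is the step between control and the other media. Deviations from the group means also correlated, from 0.814 for IFI27 to 0.926 for BMP2. In both media together the log2 fold changes were -1.94 for PRKAR2B, -1.77 for BMP2, -2.17 for CDH2, -2.03 for PLOD2 and -2.63 for IFI27. That of HIF1A was -1.07. Genes chosen for likeness to HIF1A over these same libraries share its fall and its deviations partly by that choice, so neither is separate evidence. PLOD2 shows the pattern, with 86.7, 90.5 and 112 CPM in control, then 27.5, 19.0 and 12.3 CPM in low glucose and 14.2, 35.1 and 35.8 CPM with BHB. Like HIF1A, it was lowest among the BHB libraries in replicate 1.

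In all, 91 of the 9689 genes reached a correlation of 0.9 with HIF1A, against 4 with VEGFA and 5 with BNIP3. VEGFA and BNIP3 lacked the step of HIF1A, with log2 differences of 0.14 and -0.07 in both media together. These counts therefore do not compare like with like. For VEGFA the nearest were DDRGK1 (0.937), GPR157 (0.922) and MRPL43 (0.920), and for BNIP3 they were UBE2L3 (0.936), COX16 (0.932) and CDK17 (0.932).

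**Figure D4:**
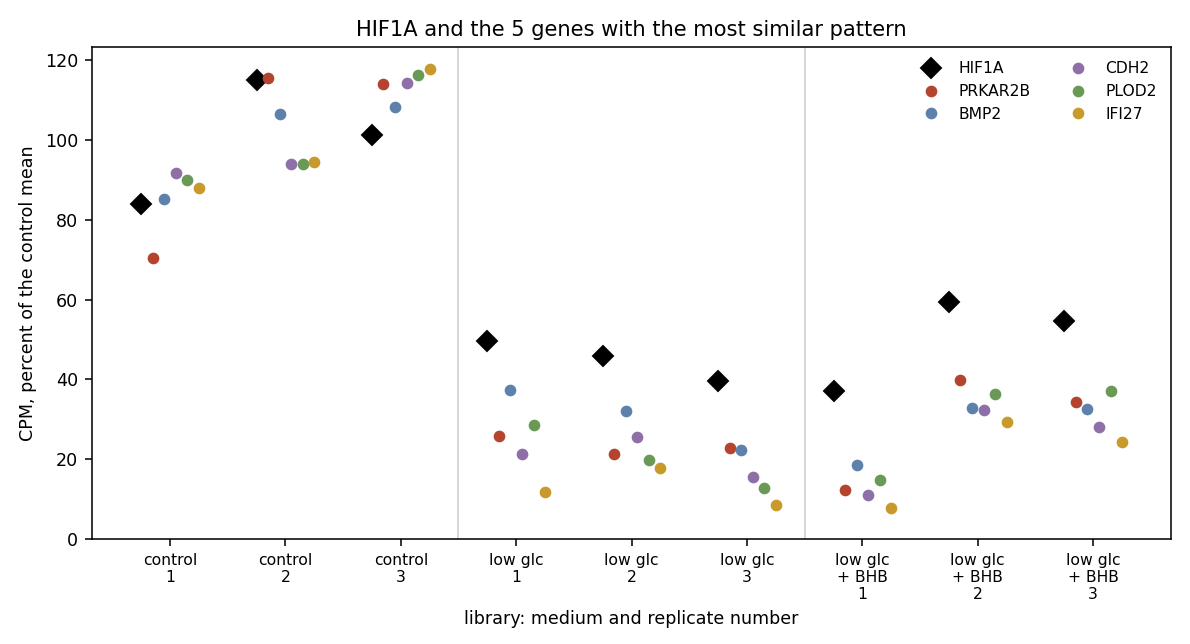
CPM as a percentage of the control mean (vertical axis) in each library (horizontal axis: medium and replicate number) for HIF1A (black diamonds) and the 5 genes most like it. HIF1A lies between 37.2% and 59.3% of the control mean in the 6 low glucose and BHB libraries, above each of the other 5 genes in the same library.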

How the data were processed

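The authors deposited 1 gene table of estimated counts. Of its values 19.2% are not whole within 0.000001, while all 90 values of the 10 genes are. Fastp, kallisto, DESeq2 and the build bosTau9 are listed, without versions, annotation or roles, per the submitters' processing notes. Polyadenylated RNA was selected and libraries were made with NEBNext kits, per the labels' protocols. Kallisto shares reads between similar transcripts, and strand use is not stated, so antisense transcripts cannot be told apart. No coordinates are given, because the gene table at hand is of another assembly, ARS-UCD2.0, used only for 323 symbols missing from the deposited table.

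Estimated counts were rounded and fitted in edgeR 4.0.16 (R 4.3.3) over all 9 libraries with 3 group means, TMM factors, filterByExpr (minimum count 10, total 15) and a quasi-likelihood test, two-sided, Benjamini-Hochberg adjusted over 16469 genes at 0.05. Each standard error is the log2 fold change divided by the square root of F. Counting intervals cover counting error only. The fit was tested on simulated data. An exact permutation test per gene was also computed and is not used: 3 libraries against 3 cannot go below 0.1 and 6 against 3 cannot go below 0.0119, and its adjustment ran over these chosen genes alone. The genes and lists were chosen with earlier results of these data known. Named were the 10 genes, list genes past the threshold in any comparison, the 2 of smallest p per list, and the 5 genes most like HIF1A and the 3 most like VEGFA and BNIP3. Deviations from group means of same-numbered libraries correlated above 0.1 in all 3 pairs only between the low glucose media (0.115, 0.243 and 0.102). Differently numbered libraries of these media ran from -0.174 to 0.039. Control replicate 1 also reached 0.131 with low glucose replicate 1 and 0.144 with BHB replicate 1. The labels tie no number to a run or day, so whether the numbers pair these samples remains unsettled. Alternatives were RLE factors, other filters (none, or a mean count of 50), DESeq2 1.42.0, limma-voom (limma 3.58.1), a replicate block, fits restricted to the groups compared, and leaving out each library. Figures were drawn with matplotlib 3.10.9. One result of the list of other hypoxia-induced genes is not reported here.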

Additional observations from a re-analysis of the deposited data

How the results depend on the processing

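Of 640 values of the 10 genes (40 results under 16 alternatives), 602 kept direction and side of the threshold, 3 lost the call and 35 changed sign, none of them a call. The 3 were HIF1A with BHB, given with the result. Leaving out each library left 0 to 1 of the 10 genes lower with BHB. Over all genes, it gave 194 to 391 lower and 0 to 3 higher in low glucose, 90 to 256 lower and 0 to 1 higher with BHB, and 291 to 474 lower and 0 to 3 higher in both media together. Against main counts of 333, 227 and 472 lower and 1 higher in each, DESeq2 gave 548 lower and 9 higher in low glucose, 412 lower and 8 higher with BHB, 24 higher in both together, and 1 lower and 1 higher between the low glucose media. In limma-voom 0 were higher in low glucose and 2 in both together. A mean count of at least 50 left 0 higher with BHB, and a fit of only the libraries compared gave 3 higher in both together. With the replicate block, 4 were higher with BHB and 8 in both together, no call among the 10 genes changed, and EPAS1 turned to -0.059 in low glucose. Other sign changes were of EPAS1 in low glucose under limma-voom (-0.12), BNIP3 in low glucose at a mean count of 50 (-0.005), and VHL in both together under RLE factors (0.005), DESeq2 (0.005) and the fit of 2 groups (0.001). With libraries left out, sign-changing values in low glucose ran from -0.81 to 0.63 (EPAS1), -0.072 to 0.18 (EGLN2), -0.71 to 0.20 (VHL), -0.10 to 0.034 (HIF1AN) and -0.074 to 0.068 (BNIP3). With BHB they ran from -0.035 to 0.11 (ARNT) and -0.07 to 0.21 (VHL). Between the low glucose media they ran from -0.95 to 0.50 (EPAS1), -0.12 to 0.016 (ARNT), -0.038 to 0.10 (EGLN1), -0.12 to 0.78 (VHL) and -0.041 to 0.14 (VEGFA). In both together they ran from -0.56 to 0.24 (EPAS1), -0.006 to 0.14 (ARNT), -0.32 to 0.14 (VHL) and -0.023 to 0.11 (HIF1AN). The cause of these changes was not tested. Depth was not varied. The lowest count of any of the 10 genes in a library was 159.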

Other observations

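EPAS1 and EGLN3 each had a set of genes that ran with them over the 9 libraries, found by the measure of likeness used for HIF1A but chosen after their values were seen. For EPAS1 these were PLEKHF2 (0.972), LPAR3 (0.961), a lysophosphatidic acid receptor gene, and IDE (0.957), the gene of an insulin-degrading enzyme. All 3 were highest in low glucose replicate 1 and lowest in low glucose replicate 3, as EPAS1 was. PLEKHF2 stood at 82.7 and 35.8 CPM, LPAR3 at 20.3 and 8.89 CPM and IDE at 82.9 and 48.1 CPM. Sharing these extremes follows largely from choosing the genes by likeness to EPAS1 over these libraries. Leaving out each library in turn kept the correlations at 0.925 or higher, but the genes had been chosen with all libraries in. In all, 43 genes reached a correlation of 0.9 with EPAS1.

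For EGLN3 the nearest genes were CHN2 (0.974), NTAQ1 (0.963) and ZDHHC2 (0.960). CHN2, which encodes a chimaerin that switches off the GTPase Rac, stood at 7.46, 6.94 and 7.19 CPM in control, then 5.85, 4.21 and 3.99 CPM in low glucose and 4.23, 4.24 and 5.76 CPM with BHB. In none of these genes, nor in EGLN3, did both low glucose media together pass against control (edgeR adjusted p = 0.214 for CHN2, 0.464 for NTAQ1 and 0.0728 for ZDHHC2). In all, 25 genes reached a correlation of 0.9 with EGLN3.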
